A study of Mus musculus with 2 samples.

Results

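The myeloid transcription factors and colony-stimulating factor (CSF) receptors are 9 genes that steer blood progenitors towards monocytes, macrophages and granulocytes and let them sense the CSF growth factors. They were 5 factors, Spi1, Cebpb, Cebpe, Irf8 and Gfi1, and 4 receptor genes, Csf1r, Csf3r, Csf2ra and Csf2rb. The genes were chosen by symbol, matched from the unversioned mouse Ensembl identifier in both gene tables, and all 9 were found among 43346 mouse gene rows. The liver of B6NCrl mouse embryos at day 14.5 had been sequenced as total RNA in 2 biological replicates, which form 1 group. No genotype, treatment or second group is given in the labels. Replicate 1 was collected on 17 July 2014 and replicate 2 on 15 July 2014, so embryo and collection day cannot be told apart. The labels call each sample a single liver, yet give its sex as male and female pooled. Each library started from 10 ng of RNA above 200 nucleotides, with ERCC spike-in RNAs added.

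Blood formation in the fetal liver yields myeloid cells beside the red cells. PU.1, encoded by Spi1, acts early in the myeloid and B lymphoid lines, and the C/EBP factors, Irf8 and Gfi1 then bias precursors towards granulocytes or towards monocytes and dendritic cells. The CSF receptors sit on the surface of these cells and pass survival, growth and maturation signals inward when their ligand binds.

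Estimated reads totalled 39998450 in replicate 1 and 28848861 in replicate 2, with 37059776 and 26908926 of them assigned to mouse genes. Levels are given in TPM, a share of transcripts that divides reads by transcript length and can be compared between genes. The tissue label fitted its defining genes: 6 of 6 hepatocyte genes and 6 of 6 erythroid genes reached 1 TPM in both livers, with albumin (Alb) at 2583 TPM in replicate 1 and 2847 in replicate 2. With 1 group of 2 libraries there was no comparison of conditions, and no p-value was computed.

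Csf2rb and its neighbour Csf2rb2 are shown first because their near-identical sequences bear on every count of the beta chain. The start of each coding sequence is printed over 120 bases, read from GENCODE M21 transcripts on GRCm38 and aligned without a gap. Capitals mark the 4 bases at which they differ. The Csf2rb stretch spans chr15:78335207-78336379 on the plus strand and the Csf2rb2 stretch chr15:78297071-78298229 on the minus strand, each with an intron removed.
Csf2rb: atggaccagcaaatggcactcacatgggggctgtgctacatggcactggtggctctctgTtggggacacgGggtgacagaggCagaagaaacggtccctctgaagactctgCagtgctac
Csf2rb2: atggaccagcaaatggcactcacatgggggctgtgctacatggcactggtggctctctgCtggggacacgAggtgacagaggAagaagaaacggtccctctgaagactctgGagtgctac
Over 4519 aligned bases the full transcripts were 93.7% identical, and the longest identical run was 242 bases. Of the 4665 stretches of 100 nucleotides in the Csf2rb transcript, 334 (7.16%) also occurred in Csf2rb2, so a read of that length lying within them matches both genes.

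Promoter windows, 250 bases before to 50 after the annotated start, were found in RefSeq (GRCm38.p6) for 5 of the 9 genes: Cebpb, Csf3r, Gfi1, Irf8 and Csf2ra. Gfi1 and Irf8 had several starts, which gave 7 windows. The windows of both receptor genes with an entry are printed because each held GAGGAA, the core letters of PU.1 binding sites, which are in capitals. The Csf3r window is chr4:126024409-126024708 on the plus strand and the Csf2ra window chr19:61228369-61228668 on the minus strand.
Csf3r: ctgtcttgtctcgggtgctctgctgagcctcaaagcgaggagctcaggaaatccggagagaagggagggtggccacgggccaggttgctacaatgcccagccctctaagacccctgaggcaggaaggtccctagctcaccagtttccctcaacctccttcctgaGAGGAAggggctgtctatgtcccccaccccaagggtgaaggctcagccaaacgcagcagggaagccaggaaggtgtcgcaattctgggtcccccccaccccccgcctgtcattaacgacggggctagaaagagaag
Csf2ra: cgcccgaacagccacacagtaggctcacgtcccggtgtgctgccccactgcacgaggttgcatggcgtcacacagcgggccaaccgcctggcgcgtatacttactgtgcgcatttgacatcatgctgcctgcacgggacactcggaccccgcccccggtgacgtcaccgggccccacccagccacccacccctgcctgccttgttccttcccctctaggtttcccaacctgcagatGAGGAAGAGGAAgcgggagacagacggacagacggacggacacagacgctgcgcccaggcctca
The match in Csf3r began 86 bases before the start, and those in Csf2ra began 14 and 8 bases before it, side by side without overlap. Searched on both strands, GAGGAA was present in 2 of the 7 windows and in 28.3% of 32851 mouse windows of the same length. The C/EBP letters TTGCNNAA were present in 1 of 7, a Gfi1 window, against 10.8% of all. The GFI core AAATC was present in 3 of 7, the Csf3r window and both Irf8 windows, against 35.9% of all. The GATA core GATAAG was present in 0 of 7, against 7.44% of all. These matches describe letters in a window, and no binding was measured.

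All 9 genes were detected at low to moderate levels, and Csf1r was the highest. On the TPM scale 8 of 9 reached 1 TPM in both livers, against 26.2% of all mouse gene rows. Gfi1 missed that level in replicate 2, and all 9 passed the filter of a mean of 1 TPM that 11741 genes passed. The 9 genes together held 60.7 TPM in replicate 1 and 54.3 in replicate 2. The 5 factors contributed 36.1 and 30.4 TPM to these sums, and the 4 receptor genes 24.6 and 23.9 TPM.

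Among the factors, Spi1 and Cebpb were the highest. Spi1 (ENSMUSG00000002111.8, chromosome 2, 91082390 to 91115756, plus strand) stood at 12.7 TPM in replicate 1 and 10.3 in replicate 2, from 816 and 495 reads. Cebpb (ENSMUSG00000056501.3, chromosome 2, 167688915 to 167690418, plus strand), a C/EBP factor of macrophages, of granulocyte production under demand and of hepatocytes, stood at 10.4 and 10.9 TPM, from 613 and 443 reads. The values of Spi1 and Cebpb overlapped, and in replicate 2 Cebpb was the higher of the pair. Bulk liver RNA does not divide the Cebpb reads between hepatocytes and blood cells.

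Irf8, which favours monocytes and dendritic cells over granulocytes, came next among the factors. Irf8 (ENSMUSG00000041515.5, chromosome 8, 120736358 to 120756694, plus strand) stood at 7.39 TPM in replicate 1 and 4.88 in replicate 2, from 738 and 390 reads. The replicate 2 value lay just under its own deposited bounds of 4.91 and 6.93 TPM, and the deposited posterior mean, a second estimate from the same reads, was 7.96 TPM in replicate 1 and 5.88 in replicate 2. Replicate 1 was the higher by either estimate.

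Cebpe and Gfi1, both needed for neutrophil maturation in mice, were the lowest factors. Cebpe (ENSMUSG00000052435.6, chromosome 14, 54710360 to 54712174, minus strand), which drives genes of the secondary granules, stood at 4.18 TPM in replicate 1 and 3.57 in replicate 2, from 199 and 118 reads. Gfi1 (ENSMUSG00000029275.13, chromosome 5, 107716657 to 107726036, minus strand), a zinc finger repressor, stood at 1.37 and 0.87 TPM, from 138 and 54 reads. Gfi1 had the fewest reads of the 9 genes in both livers, with exact 95% Poisson intervals of 116 to 163 reads in replicate 1 and 40.6 to 70.5 reads in replicate 2. Such intervals cover counting error only, since amplified reads are not independent molecules.

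Among the receptors, Csf1r, the tyrosine kinase receptor for CSF1 and interleukin 34 on macrophages and their precursors, was far above the others. Csf1r (ENSMUSG00000024621.11, chromosome 18, 61100598 to 61132149, plus strand) stood at 14.9 TPM in replicate 1 and 15.8 in replicate 2, from 2670.3 and 1989 reads. Csf3r (ENSMUSG00000028859.10, chromosome 4, 126024550 to 126044440, plus strand), the receptor for the granulocyte factor G-CSF, stood at 2.17 and 1.69 TPM, from 247 and 117 reads. Per length, Csf1r was 6.88-fold above Csf3r in replicate 1 and 9.36-fold above it in replicate 2, with 3.0 ± 0.31 as the mean log2 ratio (SD, n = 2). The livers therefore shared the order of these receptors but not its size.

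The GM-CSF receptor is built from a ligand-binding alpha chain and a signalling beta chain that interleukin 3 and interleukin 5 receptors also use. The alpha chain gene Csf2ra (ENSMUSG00000059326.6, chromosome 19, 61223957 to 61228429, minus strand) stood at 2.65 TPM in replicate 1 and 2.93 in replicate 2, from 194 and 149 reads. The beta chain gene Csf2rb (ENSMUSG00000071713.4, chromosome 15, 78325752 to 78353847, plus strand) stood at 4.84 and 3.47 TPM, from 944 and 469.8 reads. Beta was above alpha in both livers, 1.83-fold in replicate 1 and 1.18-fold in replicate 2, and the log2 ratio averaged 0.56 ± 0.44 (SD, n = 2). The excess of beta over alpha was larger in replicate 1, where the deposited bounds of the 2 genes did not overlap. In replicate 2 they overlapped, at 2.44 to 3.36 TPM for Csf2ra and 3.10 to 3.72 TPM for Csf2rb.

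Csf2rb held most of the beta chain signal that it shared with Csf2rb2, the mouse beta chain used by the interleukin 3 receptor alone. Csf2rb2 stood at 0.99 TPM in replicate 1 and 0.96 in replicate 2. Csf2rb was 4.89-fold above it in replicate 1 and 3.61-fold in replicate 2, and took 83.0% and 78.3% of their summed TPM, a mean of 80.7% ± 3.32 (SD, n = 2). By reads the share was 83.4% in replicate 1 (exact 95% binomial interval 81.2 to 85.6%) and 78.8% in replicate 2 (75.4 to 82.1%), and these intervals overlapped. The deposited posterior SD of the Csf2rb count, which carries the reads that could lie on either gene, was 3.39 reads in replicate 1 and 2.02 reads in replicate 2, or 0.359% and 0.430% of the count.

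**Figure D1:**
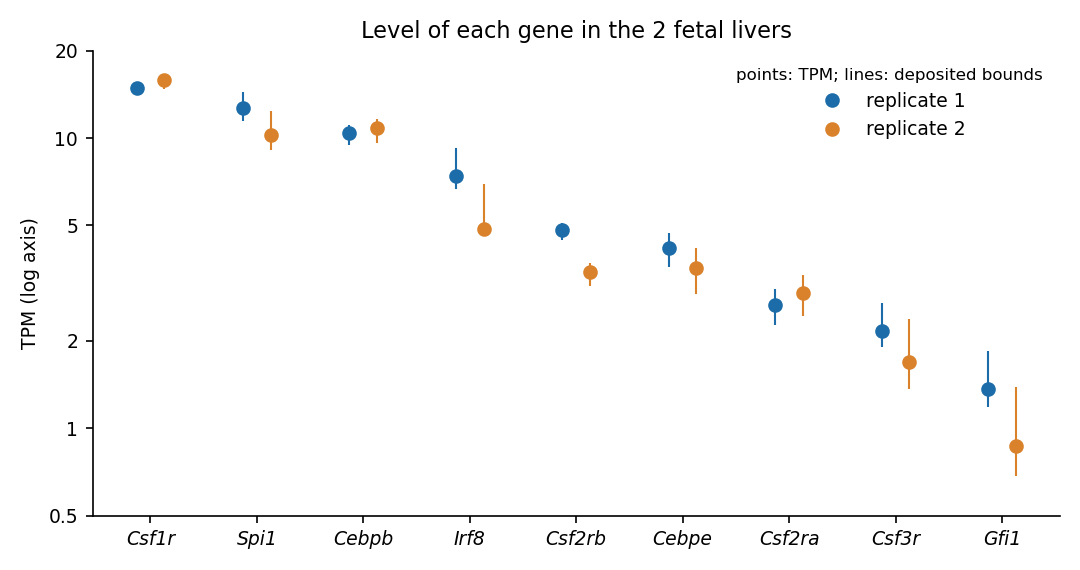
TPM (log axis) of the 9 genes in replicate 1 (blue) and replicate 2 (orange), ordered by mean. Lines are the bounds deposited with each value, whose level is not stated. Csf1r leads at 14.9 and 15.8 TPM and Gfi1 is lowest at 1.37 and 0.87 TPM, and the bounds of the livers are apart for Csf2rb.

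Ordered by mean TPM, the genes ran from Csf1r at 15.4 ± 0.636 TPM (SD, n = 2) through Spi1 at 11.5 ± 1.73, Cebpb at 10.6 ± 0.297, Irf8 at 6.14 ± 1.77, Csf2rb at 4.16 ± 0.969, Cebpe at 3.88 ± 0.431, Csf2ra at 2.79 ± 0.198 and Csf3r at 1.93 ± 0.339 to Gfi1 at 1.12 ± 0.354 TPM. The highest mean was 13.7-fold above the lowest. In 6 of the 8 neighbouring pairs both livers of the higher gene lay above both livers of the lower one. The exceptions were Spi1 with Cebpb and Csf2rb with Cebpe, whose values overlapped. The number of separate pairs was 5 on FPKM, 5 on TPM without globin genes and 7 on posterior mean TPM. Irf8 cleared Csf2rb narrowly, with its lower liver at 4.88 TPM against a higher Csf2rb liver of 4.84 TPM. Among genes whose mean reached 1 TPM, 63.2% had a lower mean than Csf1r, 56.0% a lower mean than Spi1 and 2.24% a lower mean than Gfi1.

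Ratios between the factors kept their direction in both livers. Spi1 was 1.72-fold above Irf8 in replicate 1 and 2.10-fold in replicate 2 on the TPM scale, with 0.93 ± 0.20 as the mean log2 ratio (SD, n = 2). Irf8 was 5.39-fold above Gfi1 in replicate 1 and 5.61-fold in replicate 2, and the mean log2 ratio was 2.46 ± 0.04, the smallest spread of the 9 ratios computed. Cebpb was 2.50-fold above Cebpe in replicate 1 and 3.04-fold in replicate 2, with a mean log2 ratio of 1.46 ± 0.20. Both Irf8 and Gfi1 were higher in replicate 1, and their TPM ratio was close in the 2 livers. This closeness depended on the estimated lengths, 2488 and 2850 nucleotides for Irf8 and 2504 and 2243 for Gfi1 in replicates 1 and 2. By read shares, replicate 1 over replicate 2, Irf8 stood at 1.37 and Gfi1 at 1.86, and Gfi1 had 54 reads in replicate 2.

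Most of the 9 genes were higher in replicate 1, without any passing 1.5-fold. The log2(TPM + 1) scale understates differences of low genes. On it 6 of 9 were higher in replicate 1, against 27.4% of the 11741 genes whose mean reached 1 TPM. None of the 9 lay past 1.5-fold on it in either direction, against 2.56% of these genes. On TMM-scaled counts 8 of 9 were higher in replicate 1. There the median of all genes was 0.01, against -0.10 on TPM + 1, and the share of all genes that were higher was not computed. Without the pseudocount, Irf8 and Gfi1 differed 1.51-fold and 1.57-fold in TPM. In bulk RNA, fewer cells of a type and less RNA per cell cannot be told apart.

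The largest difference, replicate 1 over replicate 2, was that of Irf8 at 0.51 (log2), and it exceeded the difference of 98.6% of genes. Csf2rb followed at 0.39, Gfi1 at 0.34, Spi1 at 0.28, Csf3r at 0.24 and Cebpe at 0.18. Cebpb at -0.05, Csf1r at -0.08 and Csf2ra at -0.11 lay on the other side of 0. The median over all genes tested was -0.10, the 5th to 95th percentile ran from -0.39 to 0.25, and the median of the 9 genes was 0.24. Relative to the median of all genes, Irf8 was higher in replicate 1 by 0.61, Csf2rb by 0.48, Cebpb by 0.04 and Csf1r by 0.02, and Csf2ra stood at -0.01.

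Shares of mouse reads, which do not use an estimated length, gave counting intervals. A ratio whose exact 95% interval lay above 1 was found for 5 of 9 genes, against 12.5% of all genes, and one below 1 for 0 of 9, against 29.4%. The 5 were Gfi1 with a ratio of 1.86 (1.35 to 2.59), Csf3r with 1.53 (1.23 to 1.93), Csf2rb with 1.46 (1.30 to 1.63), Irf8 with 1.37 (1.21 to 1.56) and Spi1 with 1.20 (1.07 to 1.34), replicate 1 over replicate 2. The interval held 1 for Cebpe at 1.22 (0.970 to 1.55), Cebpb at 1.00 (0.888 to 1.14), Csf1r at 0.975 (0.919 to 1.03) and Csf2ra at 0.945 (0.760 to 1.18). The deposited TPM bounds did not overlap for 1 of 9 genes, and the same share over all genes was not computed. The gene was Csf2rb, with 4.47 to 5.08 TPM in replicate 1 and 3.10 to 3.72 in replicate 2. These intervals compare 2 libraries and hold no spread between embryos.

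The order of the differences depended on the measure. Irf8 came first on TPM + 1 (0.51) and Gfi1 on TPM with a pseudocount of 0.1 (0.60, against 0.59 for Irf8). CPM, the share of mouse reads without a length, was scaled with TMM factors (trimmed mean of M values). On log2(CPM + 1) the median of all genes was 0.01, and 8 of 9 genes were higher in replicate 1. Relative to that median Gfi1 was higher by 0.69, Csf2rb by 0.57, Csf3r by 0.56 and Irf8 by 0.48. Cebpb and Csf1r changed sign under it, to 0.06 and 0.02 before the median was taken off, and Csf2ra stood at -0.02. Scaled to the spike-ins, whose median over all genes was -0.17, Irf8 stood at 0.44, Csf2rb at 0.31, Gfi1 at 0.30 and Csf1r at -0.16.

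**Figure D2:**
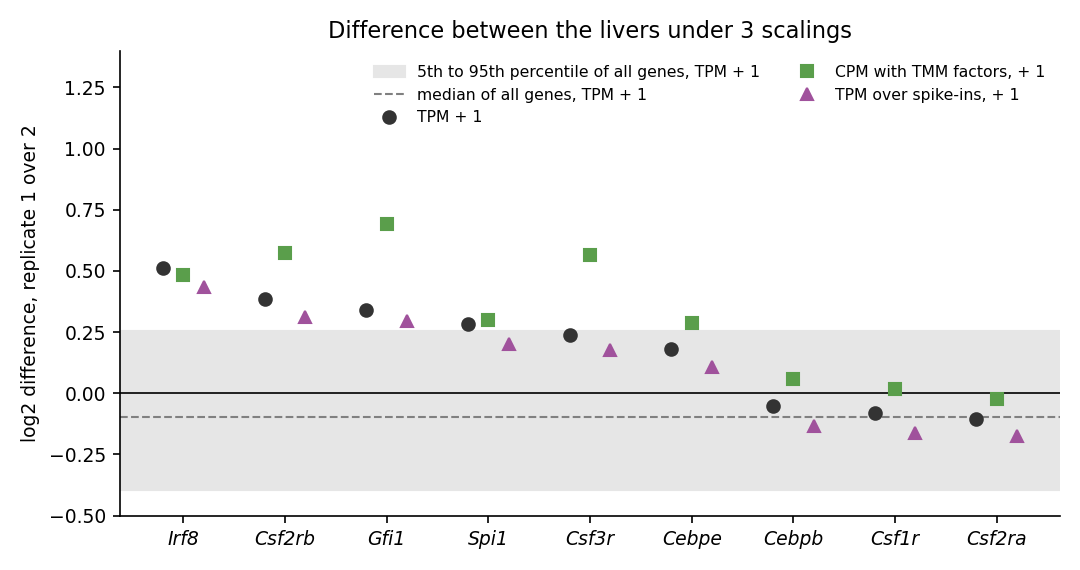
Log2 difference of each gene, replicate 1 over replicate 2, from TPM + 1 (circles), CPM with TMM factors + 1 (squares) and TPM over spike-ins + 1 (triangles). The grey band is the 5th to 95th percentile of all genes on TPM + 1, -0.39 to 0.25, and the dashed line their median of -0.10. Irf8, Csf2rb, Gfi1 and Spi1 lie above the band on TPM + 1, and Cebpb, Csf1r and Csf2ra lie near 0.

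Read support was split over several annotated transcripts for 5 of the 9 genes, and this entered the TPM through the estimated length. Irf8 was the clearest case. Irf8-201 took 83.3% of Irf8 TPM in replicate 1 and 99.6% in replicate 2, and the short Irf8-204 of 597 nucleotides took 16.1% and 0%, from 24.8 and 0 reads. The estimated gene length was 2488 nucleotides in replicate 1 and 2850 in replicate 2, and the TPM ratio of Irf8 between the livers, 1.51, was larger than its ratio of read shares, 1.37. In the deposited posterior means Irf8-204 held 17.2% in replicate 1 and 7.13% in replicate 2.

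Gfi1 and Csf3r went the other way, with a shorter estimated length in replicate 2. Gfi1-203 took 69.3% of Gfi1 TPM in replicate 1 and 67.3% in replicate 2, but only 39.9% and 30.8% in the posterior means, where Gfi1-202, listed at 0, held 17.2% and 20.2%. The estimated length of Gfi1 was 2504 nucleotides in replicate 1 and 2243 in replicate 2, and its TPM ratio of 1.57 was smaller than its ratio of read shares, 1.86. Csf3r-201 took 80.2% of Csf3r TPM in replicate 1 and 60.1% in replicate 2, while the noncoding Csf3r-204 of 696 nucleotides took 14.7% and 29.1% from 7.96 and 8.53 reads. The length of Csf3r was 2815 and 2479 nucleotides, and its TPM ratio was 1.28 against 1.53 by read shares.

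Spi1 and Csf1r each kept the same leading transcript. Spi1-201 took 73.3% of Spi1 TPM in replicate 1 and 81.9% in replicate 2, but 92.4% and 95.4% of its reads, since the other transcripts are short. Csf1r-202 took 61.1% of Csf1r TPM in replicate 1 and 67.1% in replicate 2, and Csf1r-201 the remaining 38.9% and 32.9%. The posterior SD of the Csf1r-202 count was 126 reads in replicate 1 and 95.7 reads in replicate 2, out of 1754 and 1419.9 reads. Cebpb, Cebpe, Csf2ra and Csf2rb had 1 annotated transcript each.

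**Figure D3:**
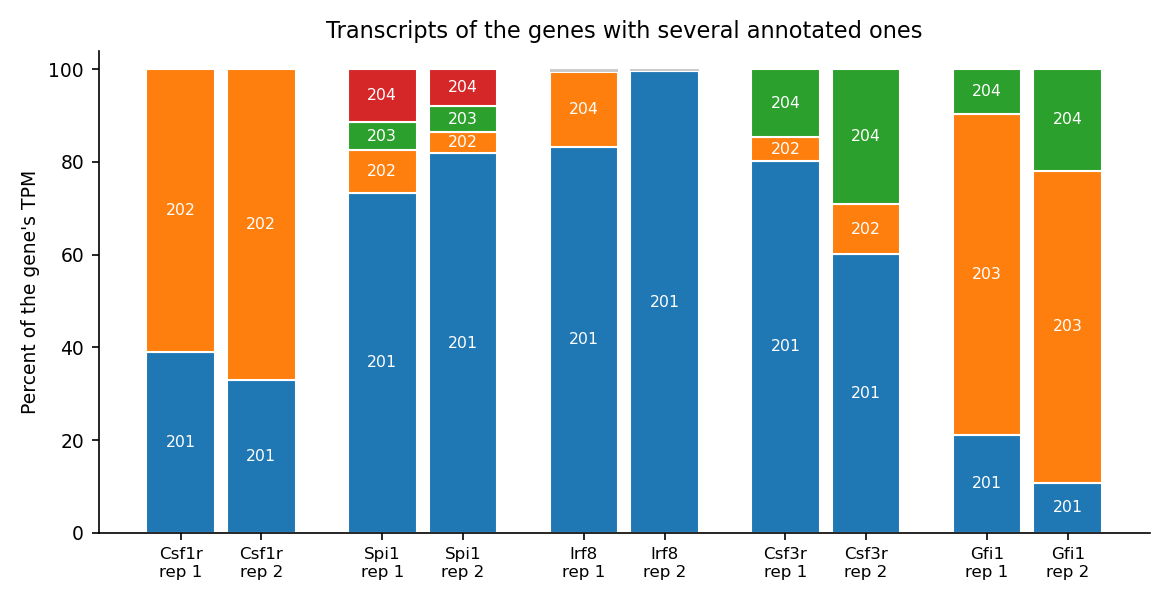
Share (percent) of gene TPM by annotated transcript, replicate 1 left of replicate 2, for the 5 genes with several. Transcripts with a small share in both replicates are pooled in grey, and those at 0% in both are not drawn. Numbers are the transcript suffixes. Irf8-204 takes 16.1% in replicate 1 and 0% in replicate 2, and Csf3r-201 takes 80.2% and 60.1%.

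Overlapping genes touched Cebpb and Csf1r most. Of the stretches of 100 nucleotides in the Cebpb transcript, 214 (15.2%) lay on the opposite strand of Tmem189, at 10.1 TPM in replicate 1 and 10.2 in replicate 2. Of those of Csf1r, 774 (16.2%) lay opposite Hmgxb3, at 1.79 and 2.54 TPM. The sources do not say if counting used the strand, so reads in these stretches could belong to either gene. The posterior SD of the gene count was 0.92 and 1.72 reads for Cebpb and 3.22 and 3.87 reads for Csf1r in replicates 1 and 2. Csf3r shared 14 stretches (0.376%) with AC105061.2, and Spi1, Cebpe, Irf8, Gfi1 and Csf2ra shared none. Irf8 lies within the span of Gm20388 on the same strand, at 0 TPM in both livers, and Gfi1 overlaps the antisense A430072P03Rik, at 0.02 and 0.11 TPM.

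Of the ligands that these receptors bind, Csf1 was the one expressed at 1 TPM or more. Csf1 stood at 4.75 TPM in replicate 1 and 4.94 in replicate 2, below its receptor Csf1r in both livers. Il34, the other Csf1r ligand, was at 0 and 0.08 TPM, from 0 and 2 reads. No read was counted in either liver for Csf3, Csf2, Il3 or Il5, the ligands of the other receptors. A count of 0 allows up to 3 reads, which is 0.0546 TPM in replicate 1 and 0.0786 in replicate 2 for Csf3, 0.102 and 0.147 TPM for Csf2, 0.135 and 0.195 TPM for Il3, and 0.0499 and 0.0718 TPM for Il5. Csf3r and Csf2ra had reads in both livers while no read of their ligands was counted.

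The alpha chains that pair with Csf2rb differed in level. Il3ra stood at 0.92 TPM in replicate 1 and 1.41 in replicate 2, from 50 and 53 reads, and Il5ra at 0.07 and 0.04 TPM, from 5 and 2 reads. Csf2ra was above both in each liver. Of 9 partner and related cytokine receptors 5 reached 1 TPM in both livers, 4 were higher in replicate 1 and 5 lower, and their median difference was -0.07 (log2). Of the 11741 genes whose mean reached 1 TPM, 27.4% were higher in replicate 1, with a median difference of -0.10. The erythropoietin receptor Epor stood at 62.5 TPM in replicate 1 and 73.0 in replicate 2, above every CSF receptor. The stem cell factor receptor Kit was at 9.71 and 9.16 TPM and Flt3, a receptor of early lymphoid and myeloid progenitors, at 0.99 and 1.09 TPM. The interleukin 6 receptor chains Il6ra and Il6st were at 1.58 and 1.06 TPM and at 2.92 and 3.15 TPM.

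Relatives of the factors set the members in their families. Among the C/EBP genes, Cebpa, which starts granulocyte and monocyte commitment and also acts in hepatocytes, was at 5.20 TPM in replicate 1 and 4.82 in replicate 2, and Cebpd at 7.52 and 6.18 TPM. Cebpb was 2.01-fold above Cebpa in replicate 1 and 2.25-fold in replicate 2, and Cebpa was 1.24-fold and 1.35-fold above Cebpe, a log2 ratio averaging 0.37 ± 0.08 (SD, n = 2). Cebpe was thus the lowest of these 4 in both livers. Irf4, the nearest relative of Irf8, was at 0.09 and 0.07 TPM.

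The erythroid counterparts were far above the myeloid factors. Gfi1b, the paralogue of Gfi1 in red cells and megakaryocytes, stood at 72.3 TPM in replicate 1 and 86.7 in replicate 2, 52.8-fold and 99.6-fold above Gfi1, with 6.18 ± 0.65 as the mean log2 ratio (SD, n = 2). Gata1, the erythroid factor that opposes PU.1, stood at 85.8 and 103 TPM, 6.75-fold and 10.1-fold above Spi1, with 3.04 ± 0.41 as the mean log2 ratio. Both gaps were wider in replicate 2, where Gfi1 and Spi1 were lower and Gfi1b and Gata1 higher. Of 20 related transcription factors 16 reached 1 TPM in both livers, from Id2 at 90.9 and 87.7 TPM down to Egr2 at 0.08 and 0 TPM. Their median difference was 0.01 (log2), 10 were higher in replicate 1 and 9 lower. Among genes whose mean reached 1 TPM the median was -0.10, and 27.4% were higher in replicate 1.

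**Figure D4:**
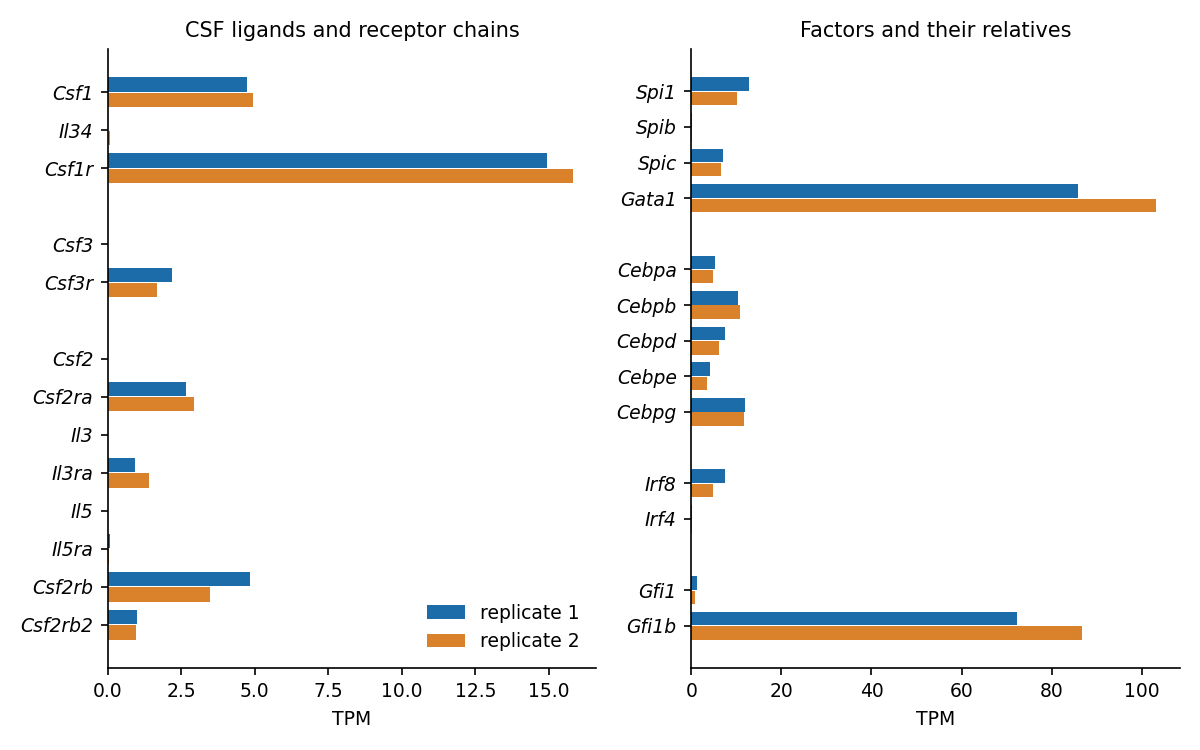
TPM in replicate 1 (blue, upper bar) and replicate 2 (orange, lower bar) of the CSF ligands and receptor chains (left) and of the factors with their relatives (right); the axes differ. Csf1 is the one ligand above 1 TPM, Csf1r is the highest receptor gene on the left, and Gata1 and Gfi1b exceed every myeloid factor on the right.

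Genes of signalling downstream of the receptors were detected, but bulk RNA does not show in which cells. Of 16 genes of CSF receptor signalling 15 reached 1 TPM in both livers, against 26.2% of all mouse gene rows. The adaptor gene Tyrobp led at 92.8 TPM in replicate 1 and 86.2 in replicate 2. The kinase gene Jak1 at 31.2 and 35.5 TPM and the phosphatase gene Ptpn6 at 22.9 and 24.3 TPM followed. The feedback inhibitors Cish and Socs3 stood at 5.35 and 4.43 TPM and at 2.19 and 1.82 TPM. Socs1 was lowest at 0.68 and 1.01 TPM. The median difference of this list was -0.20 (log2), with 6 genes higher in replicate 1 and 10 lower, but 0.01 on TMM-scaled counts. Over all genes tested 27.4% were higher, and the medians were -0.10 and, on TMM-scaled counts, 0.01.

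Markers of the cells that use these genes differed between the livers to different extents. All 12 of 12 granulocyte genes were higher in replicate 1, with a summed level of 2846 TPM in replicate 1 and 2037 in replicate 2 and a median difference of 0.40 (log2). Over all genes tested 27.4% were higher in replicate 1, and the median difference was -0.10. The calprotectin genes S100a8 (1292 and 894 TPM) and S100a9 (682 and 479 TPM) led, before Mpo (302 and 253 TPM), and Elane stood at 131 and 101 TPM. Past 1.5-fold were Ctsg at 0.78 and Lcn2 at 0.64, named after their values were seen. The genes of secondary granules that Cebpe serves, Camp and Ltf, stood at 108 and 84.5 TPM and at 20.1 and 16.2 TPM. The part of the granulocyte genes in the differences of Cebpe, Gfi1 and Csf3r was not tested.

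Of 18 monocyte and macrophage genes 15 reached 1 TPM in both livers, 9 were higher in replicate 1 and 8 lower, and the median difference was 0.02 (log2). For this list and the dendritic one, the background is 27.4% of all genes tested higher in replicate 1 and a median of -0.10. Their summed level was 540 TPM in replicate 1 and 474 in replicate 2, to which Lyz2, also made by granulocytes, gave 274 and 218 TPM. C1qb stood at 81.7 and 79.5 TPM, C1qc at 37.9 and 41.2 TPM, and Cd163 at 0.02 TPM in both. The single genes spread widely around the median, from -0.41 to 0.52. Named after their values were seen, the monocyte genes Ccr2 (5.59 TPM in replicate 1 and 3.59 in replicate 2, a difference of 0.52) and Ly6c2 (35.1 and 24.4 TPM, 0.51) were as far apart as Irf8, and Lyz2 (0.33) and Itgam (0.30) lay on the same side. The macrophage genes Vsig4 (0.38 and 0.83 TPM, -0.41, from 21 and 32 reads) and Timd4 (5.14 and 6.24 TPM, -0.24) lay on the other side. So did Cx3cr1, a gene of monocytes and macrophages (0.55 and 1.05 TPM, -0.40, from 75 and 106 reads). Cd14 (0.03) and Cd68 (0.09) differed little. Also named after their values were seen, Fcgr1 (0.18) and Marco (0.16) were higher in replicate 1, and Mertk (-0.21) and Adgre1 (-0.18) lower. Monocyte and macrophage genes thus lay on both sides. Dendritic cell genes, a further setting of Irf8, had a summed level of 14.4 TPM in replicate 1 and 14.95 in replicate 2, with 4 of 8 genes at 1 TPM in both, 4 higher in replicate 1 and 3 lower. Differences in this list ran from -0.35 for H2-Aa (1.44 and 2.1 TPM) to 0.20 (log2) for Siglech. Siglech, a marker of plasmacytoid dendritic cells, was at 0.34 TPM from 24 reads in replicate 1 and 0.17 TPM from 9 reads in replicate 2. Zbtb46, the highest of the list (5.53 and 5.33 TPM, 0.04), and H2-Ab1 (0.09) lay on the same side as Siglech. Cd74 (-0.11) and Itgax (-0.08) lay on the side of H2-Aa. Xcr1 and Ciita, at most 0.03 TPM in either liver, had too few reads to compare. The part of monocyte and dendritic cell genes in the difference of Irf8 was not tested.

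B cell genes, whose cells also use Spi1 and Irf8, had a summed level of 10.8 TPM in replicate 1 and 12.1 in replicate 2, with 4 of 8 at 1 TPM in both and Pax5 at 0 and 0.06 TPM. Their median difference was 0.00 (log2), with 4 higher in replicate 1 and 4 lower, against a median of -0.10 and 27.4% higher over all genes tested. Hepatocyte genes had a summed level of 16562 TPM in replicate 1 and 17336 in replicate 2 and a median difference of -0.04. Erythroid genes had sums of 142304 and 136973 TPM and a median of 0.02, and endothelial and stromal genes, 7 of 7 at 1 TPM in both, sums of 122 and 131 TPM and a median of -0.08. On TMM-scaled counts the medians were 0.52 for granulocyte genes (12 of 12 higher in replicate 1), 0.11 for monocyte and macrophage genes (12 of 18 higher, against 9 on TPM + 1) and 0.05 for dendritic cell genes (4 of 8 higher). They were 0.07 for B cell, 0.08 for hepatocyte, 0.12 for erythroid and 0.00 for endothelial and stromal genes. On that scale the median of all genes was 0.01, and the share of all genes that were higher was not computed. No gene of the 7 marker lists was without reads in both livers, and the part of these lists in the levels of the 9 genes was not tested.

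**Figure D5:**
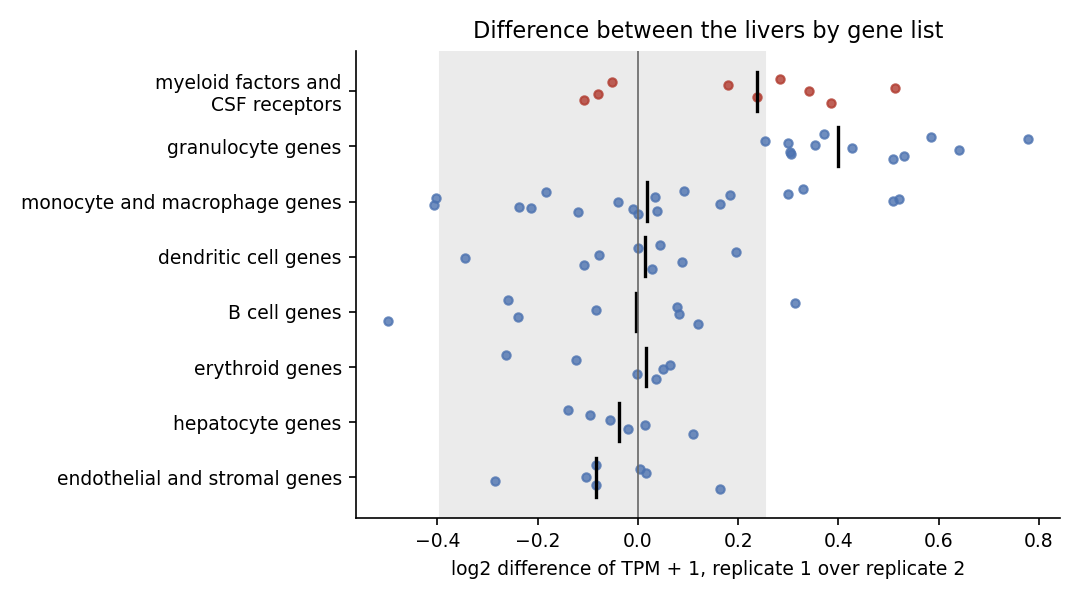
Log2 difference of TPM + 1, replicate 1 over replicate 2, for each gene (points) of the 9 myeloid factors and CSF receptors and of 7 marker lists, with each list's median (black bar). The grey band is the 5th to 95th percentile of all genes, -0.39 to 0.25. The medians are 0.24 for the 9 genes and 0.40 for granulocyte genes, and lie between -0.08 and 0.02 for the other lists.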

How the data were processed

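The 9 genes and all gene lists were chosen with earlier results of these data known. Values came from the gene table and the transcript table of each library, built on mm10 and GENCODE M4 per the deposited descriptions of the files. Expected counts were deposited without normalization, with the aligner and counting program not given in the sources used here. TPM, over all rows including spike-ins, and FPKM were deposited by the authors, as were posterior means, TPM bounds and the percent of gene TPM per transcript, per the file headers. The effective length in the files was 99 nucleotides below the length.

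Symbols, positions and transcript names came from GENCODE M21 on the same build (42462 mouse rows with a symbol, 125 of 125 list symbols in 12 lists), and promoters from RefSeq. Differences were log2 of TPM plus 1, replicate 1 over replicate 2. Read-share ratios, out of mouse reads, had exact binomial (Clopper-Pearson) 95% intervals, and a count of 0 a floor of 3 reads. Spike-ins held 7.35% of reads in replicate 1 and 6.72% in replicate 2 and, with 26249 rows that name no mouse gene, were left out of these shares. TMM factors were 0.981 and 1.02, from rounded counts and without a test. A library's depth limits the low genes most.

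Named were all 9 genes, every gene of lists of up to 9, the 3 highest and the lowest of longer lists and a fixed set of partners. Of these, 1 related gene is not reported here. Cebpg, Spib and Spic are plotted as family members. Likeness of pattern was not computed, since any genes correlate fully over 2 libraries. Alternatives were other pseudocounts, scalings, filters and thresholds, posterior means, expected counts for shares, and each library alone. The 1.5-fold call was tested on simulated counts with larger planted changes and counting noise alone. The read-share ratios and their intervals were not tested in this way. Python 3.11.15, numpy 2.4.6, pandas 2.3.3, scipy 1.17.1, matplotlib 3.10.9, R 4.3.3 and edgeR 4.0.16 were used.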

Additional observations from a re-analysis of the deposited data

How the results depend on the processing

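Of the results that answer a comparison, 20 alternative values stayed close to the reported one and 4 moved, while Cebpb and Csf1r, close to 0, changed sign on TMM-scaled counts (0.06 and 0.02). Several of the 20 could not move. Another pseudocount keeps each sign, and all 9 genes passed the filter. With 0 genes past 1.5-fold, a higher threshold or a larger pseudocount could call none. Past 1.5-fold lay 0 of 9 genes as reported, and 2 with a pseudocount of 0.1 (Irf8 at 0.59 and Gfi1 at 0.60). On TMM-scaled counts, an alternative chosen after seeing the data, it was 1 gene (Gfi1). The share of all genes past 1.5-fold was computed on TPM + 1 only (2.56%), so these alternative counts have no background. At 5 TPM in place of 1 TPM, 3 genes passed in both livers, against 8. With 1 library left out, 5 to 9 genes kept their rank, the lower figure without replicate 1. For single genes and lists 18 alternative values moved and 159 did not. The 159 include each library alone for levels and ratios, which could not move. With 2 libraries each value lies within 1 SD of their mean, so these entries say nothing about stability. The same holds for list counts under other pseudocounts, which keep each sign. It also holds for ratios on FPKM, which is proportional to TPM within a library. All 9 levels were higher when TPM was rescaled without globin genes (Csf1r at 23.7 TPM), and the cause is that construction. No paired analysis was possible because there was 1 group. Low read numbers limit Gfi1, Csf3r, Cebpe and Csf2ra, and 2 livers give no estimate of how embryos vary beyond each SD.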
